A study of Mus musculus with 4 samples.

Results

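Potassium channels and the pacemaker channels related to them set the resting potential of cardiac cells, end the action potential and, in pacemaker tissue, start the next one. Their genes carry symbols that begin with Kcn or belong to the HCN family. Of 101 such symbols in the deposited gene tables, 80 reached the minimum of 20 unique molecular identifiers (UMIs, each standing for 1 captured RNA molecule) summed over all libraries, among 44628 genes listed and 26859 that reached the same minimum. The choice used only the symbol and this summed count. The last symbol left out was Kcns1 with 19 UMIs, and the first kept was Kcng1 with 22 UMIs.

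The study profiled single nuclei from whole mouse hearts to ask what changes after deletion of Pkp2, the gene of the desmosomal protein plakophilin, which is linked to arrhythmogenic right ventricular cardiomyopathy. The 2 control libraries came from MCM cre/+ mice and the 2 knockout libraries from PKP2fl/fl MCM cre/+ mice (cKO). All mice were given tamoxifen, the age label is 8 weeks, and hearts were taken 2 weeks after the injection. Each library was a pool of the hearts of 2 mice, 1 male and 1 female, so the 2 libraries of a group are the only replicates and single mice cannot be told apart. The labels give neither the promoter that drives the Cre allele nor floxed Pkp2 alleles for the controls, whose genotype tag reads wt. The sample labels name the cardiomyocyte as the cell type, but nuclei of 8 classes were recovered.

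The libraries held 5947 to 14238 barcodes and 13491201 to 40536562 UMIs, of which 2805 to 6268 nuclei per library were kept. Between 48.8% and 53.8% of barcodes lay above the limit on mitochondrial UMIs. At most 2 cell labels were shared between any 2 libraries. Cardiomyocytes were 51.9% and 42.5% of nuclei kept in control 1 and control 2 and 32.6% and 24.9% in cKO 1 and cKO 2. The classes were built from genes other than the channel genes. Cardiomyocyte nuclei showed their defining markers, at a summed level of 58849.8 and 61471.7 counts scaled to 1000000 UMIs of the nuclei summed (CPM) in the controls and 58200.6 and 61038.3 in cKO, and atrial markers were near 0, with 9 UMIs of Myl7, the atrial myosin light chain, in all cardiomyocytes together (2, 1, 4 and 2 by library). Pkp2 was at 565 and 553 CPM in control cardiomyocytes and at 617 and 593 CPM in cKO cardiomyocytes (log2 fold change 0.11, SE 0.14, edgeR adjusted p = 0.80). The counts are per whole gene, so a deleted part of the gene need not show in them, and they do not check the label. Esr1, an estrogen receptor gene, was at 75.7 and 64.2 CPM against 3588 and 3324 CPM. Tamoxifen-inducible forms of Cre commonly carry part of an estrogen receptor. The titles give both groups the same Cre allele, but whether the controls carry the same transgene was not tested, and they may lack it. Every value of cKO against control below therefore compares groups in which Pkp2 deletion and whatever underlies this Esr1 difference cannot be told apart.

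Voltage-gated channels (Kv) are tetramers of pore subunits that open on depolarization, with auxiliary subunits that set their speed and surface level. Inward rectifiers (Kir) hold the resting potential and include channels gated by G proteins and by ATP. K2P channels, with paired pore domains in each subunit, carry background current. Calcium- and sodium-activated channels couple potassium flow to these ions. HCN channels open on hyperpolarization and carry the pacemaker current. The 80 genes comprised 31 Kv pore subunits, 11 Kv auxiliary subunits, 10 inward rectifiers, 9 K2P channels and 4 HCN genes. Another 12 were grouped by family with the calcium- and sodium-activated channels, though not every member need be gated by these ions. The other 3 encode no channel subunit, namely the antisense RNAs Kcnq1ot1 and Kcnd3os and the regulator Kcnrg. All 80 were matched by gene ID to the GENCODE M21 annotation of the mouse genome, 78 as protein coding and 2 as antisense RNAs.

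The level of each gene was taken as CPM of the UMIs summed per library and class. The mean over the 4 libraries was highest in cardiomyocytes for 22 genes, in endothelial nuclei for 11, in pericytes for 10, in fibroblasts and in lymphocytes for 8 each, and in lymphatic, macrophage and smooth muscle nuclei for 7 each. No test belongs to these orders, because a class against the rest of the same nuclei is no replicate comparison. The lymphatic, lymphocyte and smooth muscle classes had under 50 nuclei in at least 1 library and are described by level only, and the classes highest for genes with a few UMIs rest on those few counts.

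**Figure D1:**
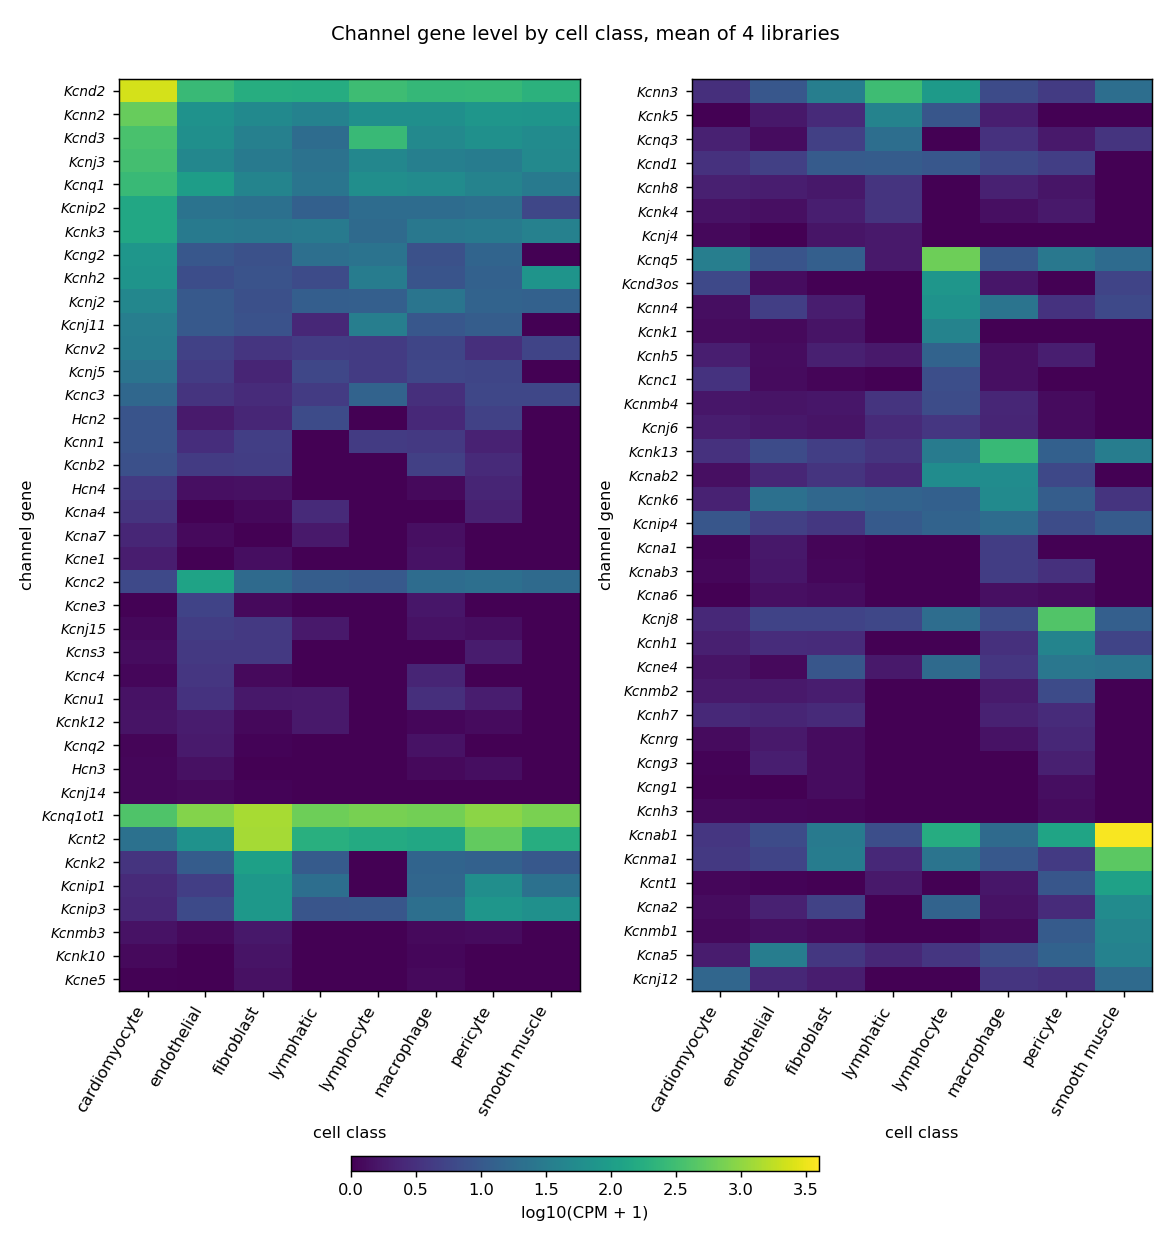
Mean level of 77 of the 80 channel genes (rows, ordered by the class where each is highest) in 8 cell classes (columns), as log10(CPM + 1) of the mean CPM over the 4 libraries. Kcnd2 stands out in cardiomyocytes (2299 CPM), Kcnt2 in fibroblasts (1284 CPM) and Kcnab1 in smooth muscle (3658 CPM), while many Kv and K2P genes lie near 0 in every class.

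In cardiomyocytes the 9 genes that led were Kcnd2, Kcnn2, Kcnd3, Kcnj3, Kcnq1, Kcnip2, Kcnk3, Kcng2 and Kcnh2. Kcnd2 and Kcnd3 encode pore subunits of the transient outward current that shapes the short mouse action potential, and Kcnip2 their main cardiac auxiliary subunit. Kcnd2 had 73407 UMIs in cardiomyocytes, at 2145 and 3179 CPM in the controls and 1761 and 2110 CPM in cKO. The control libraries were farther from each other than the lower control was from either cKO library. The next class for Kcnd2 was the lymphocytes, at 302 CPM on average. Kcnh2, the pore subunit of the rapid delayed rectifier, had a mean of 71.4 CPM in cardiomyocytes. Smooth muscle had the same mean, but it rests on control 1 (237 CPM from 2 UMIs), and the other libraries were at 17.9, 21.3 and 9.86 CPM from 1 UMI each.

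Outside cardiomyocytes several genes were many times higher than in cardiomyocytes. Kcnab1, a Kv beta subunit, was at 3312 and 3839 CPM in control and 2660 and 4822 CPM in cKO smooth muscle nuclei, against a mean of 2.68 CPM in cardiomyocytes. The smooth muscle class was small, with 6 to 44 nuclei per library. Kcnma1, the pore subunit of the large-conductance calcium-activated channel that relaxes vessels, was at 473, 1000, 340 and 177 CPM there, from 94 UMIs in all, and its next class was fibroblasts at 31.2 CPM. In pericytes Kcnj8, the inward rectifier of the vascular ATP-sensitive channel, was at 532, 344, 426 and 351 CPM in control 1, control 2, cKO 1 and cKO 2, and at a mean of 18.6 CPM in lymphocytes, the next class.

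Fibroblasts led for Kcnt2, a sodium-activated channel, at 1072 and 1349 CPM in control and 1142 and 1574 CPM in cKO, with pericytes next at 541 CPM. They also led for the K2P channel Kcnk2, a mechanically gated background channel, and for Kcnip1 and Kcnip3, calcium-binding proteins of the Kv channel interacting family. Macrophages led for the K2P channel Kcnk13, at 205 and 239 CPM in control and 262 and 351 CPM in cKO against 32.7 CPM in the next class. Kcnab2, a Kv beta subunit, was at 69.4, 66.0, 35.7 and 48.8 CPM in macrophages. In lymphocytes it was at 0, 76.1, 66.7 and 75.8 CPM from 15 UMIs, above macrophages in each library but control 1, so the order of these classes rests on that library. Endothelial nuclei led for Kcnc2, a Kv pore subunit of fast-firing cells, at 87.2 and 181 CPM in control and 93.1 and 121 CPM in cKO, against a mean of 19.3 CPM in pericytes, the next class. Within the endothelial class, Kcnc2 was among the leading genes of cluster 9, which had 13 and 63 control and 147 and 373 cKO nuclei. Kcnc2 was also found in an unnamed cluster of 540 nuclei led by H19, Nrg1 and Npr3, at 245 CPM, with 23.6% of the UMIs of that gene. Lymphatic nuclei led for Kcnn3, a small-conductance calcium-activated channel, at 323, 334, 162 and 374 CPM. Lymphocytes led for Kcnq5 at 312 to 800 CPM, from 155 UMIs. A cluster of 15 nuclei led by glial markers held 58.5% of the UMIs of Kcna1, 61.3% of Kcna6, 28.6% of Kcnh8 and 23.7% of Kcna2, Kv genes best known from nerve.

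Part of the signal of cardiomyocyte genes in other classes has a like low level in all of them. The summed cardiomyocyte markers reached 8.4% to 23.1% of the cardiomyocyte level in endothelial, fibroblast, macrophage and pericyte nuclei. Kcnd2 reached 6.3% to 16.0% of its own cardiomyocyte level in endothelial, fibroblast and macrophage nuclei, and Kcnj3, an inward rectifier gated by G proteins, 5.8% to 19.6%. These values lie near those of the markers or below them and are read here as background. Kcnq1, the pore subunit of the slow delayed rectifier, was at 24.9% to 53.5% in endothelial nuclei, above the marker ratio of 10.5% to 23.1% there and in each library.

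**Figure D2:**
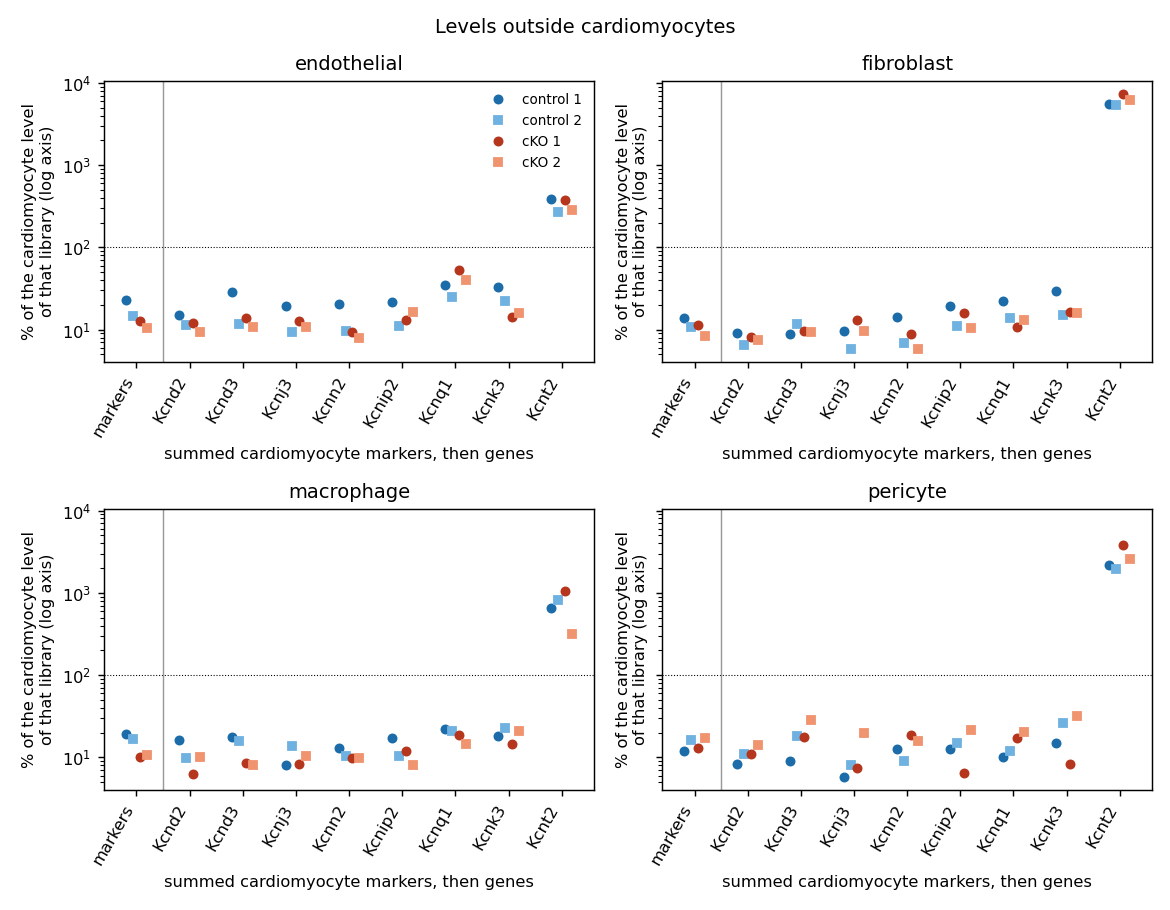
Level in 4 other classes as a percentage of the cardiomyocyte level of the same library (log axis, dotted line at 100%), for the summed cardiomyocyte markers and for 8 channel genes. Points are single libraries. Kcnd2, Kcnd3, Kcnj3, Kcnn2 and Kcnip2 lie near the markers, and Kcnt2 exceeds 100% in each class.

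For the comparison of cKO with control, UMIs summed per library and class were tested with edgeR's quasi-likelihood test over all genes of the class, with Benjamini-Hochberg adjustment and a threshold of 0.05. The CPM values from here on are scaled by edgeR's TMM factors. In cardiomyocytes 41 of the 80 genes passed the filter on low counts and 39 did not. Kcnv2 and Kcnj3 were lower in cKO, 1 gene was higher, and 38 did not pass. Over all 15404 genes tested in this class 1.22% were called higher and 1.49% lower. The median log2 fold change was -0.18 over the 41 channel genes and 0.003 over all genes, with 24 channel genes below 0 and 17 above. With edgeR, 3 channel genes were higher and 10 lower at an unadjusted p under 0.05, where 7.15% of all genes were in each direction. DESeq2 called 2 higher and 3 lower, against 1.77% and 2.22% of all genes it tested.

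**Figure D3:**
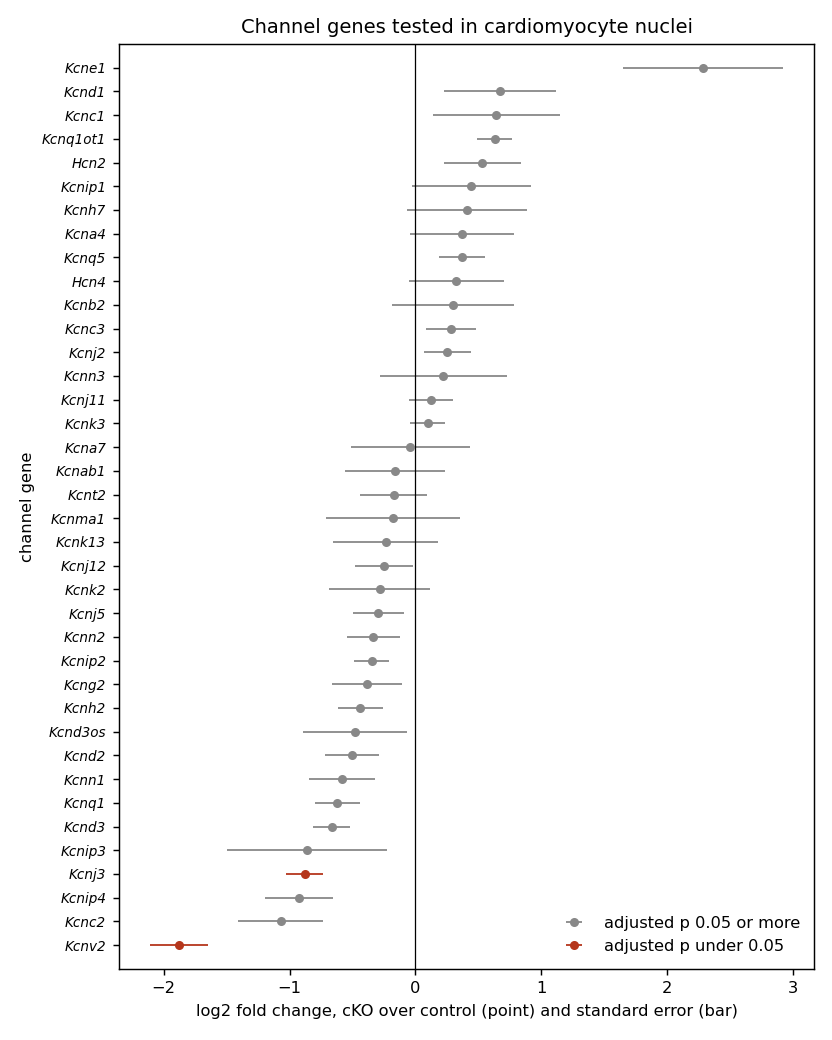
Log2 fold change of cKO over control (horizontal axis) for 38 of the 41 channel genes tested in cardiomyocyte nuclei, with the standard error as a bar, from edgeR on 2 against 2 libraries. The 2 red points passed an adjusted p of 0.05: Kcnv2 at -1.88 and Kcnj3 at -0.88.

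Kcnv2 encodes a Kv subunit that is silent alone and modifies the channels it joins. It was at 52.9 and 46.0 CPM in the controls and at 16.4 and 10.8 CPM in cKO. Both cKO libraries lay below both controls, and the log2 fold change was -1.88 (SE 0.23, edgeR adjusted p = 0.0052). The gene lies at chr19:27322588-27337179 on the plus strand, and the annotation places no other gene over it.

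Kcnj3 encodes a pore subunit of the channel that acetylcholine opens through G proteins, best known from atria and pacemaker tissue. It was at 420 and 464 CPM in control and at 224 and 256 CPM in cKO cardiomyocytes. The groups did not overlap, and the log2 fold change was -0.88 (SE 0.15, edgeR adjusted p = 0.019). Without cKO 1 it did not pass. Its partner subunit Kcnj5 was at 24.0 and 27.9 CPM against 18.6 and 23.7 CPM (log2 fold change -0.29, SE 0.20, edgeR adjusted p = 0.60). The summed atrial markers, 7 of 8 present in the files, were at 10.5 and 14.8 CPM in control and 13.7 and 14.1 CPM in cKO cardiomyocytes. The gene lies at chr2:55435970-55598145 on the plus strand, with Gm26794 on the opposite strand.

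Of the pacemaker channel genes, Hcn2 was at 6.61 and 5.99 CPM against 11.1 and 7.26 CPM (log2 fold change 0.53, SE 0.31), and Hcn4, the main pacemaker channel of the sinus node, at 2.40 and 3.04 against 2.95 and 3.93 CPM (log2 fold change 0.32, SE 0.38). Neither passed the test.

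Kcnd3, Kcnq1, Kcnd2, Kcnip2 and Kcnh2, genes of the transient outward and delayed rectifier currents, had estimates below 0 without passing. Not every gene of these currents did, and the estimate for Kcne1, given below, was above 0. Kcnd3 was at 436 and 465 CPM in control and 263 and 306 CPM in cKO. Both cKO values lay below both controls, yet the adjusted p was 0.057 with edgeR (log2 fold change -0.66, SE 0.15), and it was under the threshold in 7 of 15 alternative settings, DESeq2 among them. Kcnq1 was at 292 and 376 against 194 and 241 CPM (log2 fold change -0.62, SE 0.18, edgeR adjusted p = 0.13). With all 4 libraries kept, Kcnq1 passed only with no filter on low counts and with libraries blocked by replicate number. Kcnd2 was at 2179 and 3267 against 1735 and 2103 CPM (log2 fold change -0.50, SE 0.22, edgeR adjusted p = 0.34), with the lower control close to cKO 2. Kcnip2 was at 156 and 169 against 131 and 125 CPM, and Kcnh2 at 93.5 and 72.4 against 66.6 and 55.5 CPM. Their log2 fold changes were -0.35 and -0.44, and neither passed. Kcnd2, Kcnip2 and Kcnh2 passed only with the block by replicate number, where 12.8% of all genes tested were called lower.

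The genes of the resting and background conductances lay closer to 0. Kcnj2, the main ventricular inward rectifier, was at 47.7 and 36.8 CPM in control and 53.9 and 46.1 CPM in cKO (log2 fold change 0.25, SE 0.19). Kcnj12, its close relative, was at 13.4 and 17.8 against 12.2 and 14.3 CPM. Kcnk3, an acid-sensitive K2P channel, was at 131 and 145 against 150 and 146 CPM (log2 fold change 0.10, SE 0.14). Kcnj11, the pore of the cardiac ATP-sensitive channel, was at 35.1 and 30.9 against 37.3 and 34.4 CPM. These 4 genes did not pass, and their groups overlapped for Kcnj2, Kcnj12 and Kcnj11. The small-conductance channel gene Kcnn2 was at 541 and 745 against 429 and 592 CPM, also with overlap.

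**Figure D4:**
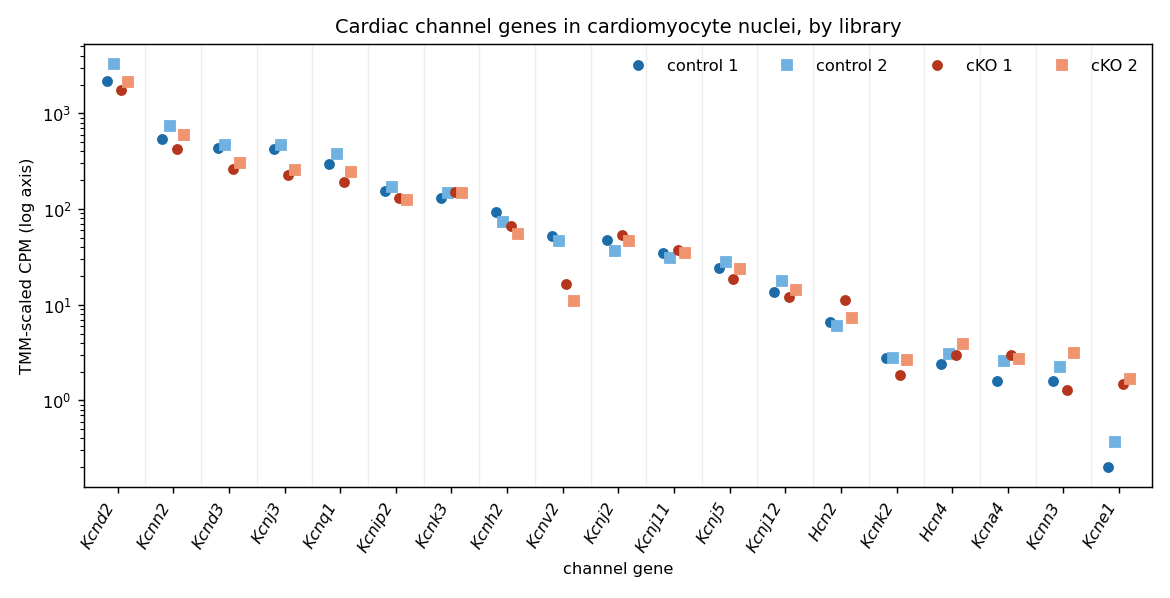
TMM-scaled CPM (log axis) in cardiomyocyte nuclei of 19 cardiac channel genes, 1 point per library, ordered by the control mean. Kcnv2 (52.9 and 46.0 against 16.4 and 10.8 CPM) and Kcnj3 fall below the controls in both cKO libraries.

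Kcne1, the auxiliary subunit of the slow delayed rectifier, was at 0.200 and 0.369 CPM in control and 1.48 and 1.67 CPM in cKO, from 1, 4, 8 and 14 UMIs in the 4 libraries (log2 fold change 2.28, SE 0.63, edgeR adjusted p = 0.12). Kcnq1ot1, the antisense RNA within Kcnq1 that silences the surrounding imprinted genes, had an estimate above 0, at 320 and 316 CPM in control and 470 and 514 CPM in cKO (log2 fold change 0.63, SE 0.14, edgeR adjusted p = 0.057). The mean level of Kcnq1ot1 was highest in fibroblasts, where its estimate was below 0. It was at 1475 and 1706 against 1063 and 1255 CPM there (log2 fold change -0.46, SE 0.23, edgeR adjusted p = 0.41). Kcnq1 (chr7:143106362-143427042, plus strand) spans Kcnq1ot1 (chr7:143203458-143296549, minus strand), and the labels do not say how strand was used in the counting, so reads of the 2 genes may not be fully separated. The same holds for Kcnd3 (chr3:105452330-105674002) and its antisense RNA Kcnd3os. Of the fixed list of cardiac genes, Kcna5 and Kcnj8 fell under the filter in cardiomyocytes.

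The cardiomyocyte class consisted of 5 clusters whose shares differed between groups, and different clusters held most of it. Cluster 3 held 44.3% and 51.1% of control and 2.36% and 4.49% of cKO cardiomyocytes, while cluster 4, with Esr1, Myh7 and Nppb among its leading genes, held 7.76% and 5.04% against 59.8% and 58.9%. Within cluster 4, Kcnj3 was at 207 and 232 CPM in control and 182 and 207 CPM in cKO, and within cluster 2, which held 26.4% to 39.6% of each library, at 410 and 431 against 326 and 334 CPM. Both gaps are smaller than in the class as a whole, and in cluster 4 the lower control equalled the higher cKO library to 3 digits. Kcnj3 was at 491 and 527 against 319 and 441 CPM in cluster 3, with few cKO nuclei. In cluster 8 it was not lower in cKO, at 232 and 317 against 294 and 326 CPM with the groups overlapping. For Kcnv2 the values were 59.6 and 35.9 against 18.3 and 11.2 CPM in cluster 2 and 33.7 and 27.6 against 14.0 and 10.3 CPM in cluster 4. Kcnv2 was thus lower in both cKO libraries within each of these 2 clusters. In cluster 3, with few cKO nuclei, Kcnv2 was at 53.25 and 51.89 against 43.05 and 2.58 CPM, so the cKO libraries lay far apart there. In the smaller cluster 8, Kcnv2 was at 41.3 and 42.8 against 26.7 and 17.7 CPM.

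Of 25 channel genes tested in fibroblasts, Kcnip1, Kcnip3 and Kcnk2 were lower in cKO and Kcnma1 and Kcne4 were higher, and 20 did not pass. Over all 11820 genes tested in fibroblasts 2.34% were called higher and 1.42% lower. The median log2 fold change was -0.55 over the 25 genes and 0.009 over all genes. At an unadjusted p under 0.05 edgeR gave 2 higher and 9 lower, against 7.63% and 6.37% of all genes. DESeq2 called 3 lower and 0 higher, against 1.16% and 1.74% of all genes, and without control 2 edgeR called 0 higher and 2 lower.

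Kcnip1 was at 144 and 155 CPM in control fibroblasts and at 11.8 and 33.5 CPM in cKO fibroblasts. Both cKO libraries were far below the controls (log2 fold change -2.57, SE 0.33, edgeR adjusted p = 0.00084). Kcnip3 was at 121 and 137 against 40.8 and 38.6 CPM (log2 fold change -1.72, SE 0.23, edgeR adjusted p = 0.0010). Kcnip3 also acts as a transcriptional repressor that releases DNA when calcium binds. Kcnk2 was at 146 and 164 against 71.6 and 70.8 CPM (log2 fold change -1.13, SE 0.22, edgeR adjusted p = 0.0091), and it did not pass without control 2 or with at most 1% mitochondrial UMIs, a setting that left 18 fibroblast nuclei in control 1 and 47 in cKO 1. Its log2 fold change was -1.21 to -0.84 over the settings run. For these 3 genes the libraries of a group lay close together apart from Kcnip1 in cKO.

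Kcnma1 was at 19.0 and 16.9 CPM in control and 46.2 and 44.6 CPM in cKO fibroblasts (log2 fold change 1.36, SE 0.30, edgeR adjusted p = 0.024). Kcne4, a small auxiliary subunit that inhibits several Kv channels, was at 1.90 and 2.12 against 12.7 and 16.3 CPM (log2 fold change 2.80, SE 0.60, edgeR adjusted p = 0.020). Neither passed with DESeq2 or without control 2, and Kcne4 did not pass without cKO 2 either. With at most 1% mitochondrial UMIs both fell under the filter on low counts. Kcnip1 (chr11:33629339-33993152) overlaps Kcnmb1 on the opposite strand, so its reads may not be fully separated from that gene.

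The fibroblast clusters also differed in their shares. Cluster 7, led by Gpr39, Thbs4, Nox4, Cilp and Postn among others, had 15 and 29 control nuclei and 348 and 517 cKO nuclei, and cluster 0 had 426 and 1135 control and 264 and 742 cKO nuclei. Cluster 18, led by Il6, Ptx3 and Has1, had 109 nuclei, of which 102 were from cKO 2, 5 from cKO 1 and 1 from each control. Within cluster 0, Kcnma1 was at 5.97 and 9.39 CPM in control and 2.66 and 13.02 CPM in cKO, so the groups overlapped there. In cluster 7 Kcnma1 was higher than in cluster 0, at 231 and 187 CPM in control and 70.6 and 76.7 CPM in cKO. Both cKO libraries thus lay below the controls there, unlike in the class as a whole, though the control values rest on 15 and 29 nuclei. Kcne4 in cluster 0 was at 1.99 and 2.09 CPM in control and 5.33 and 10.4 CPM in cKO. The control fibroblasts held 1 and 4 UMIs of Kcne4 in all. Kcnip1 in cluster 0 was at 151 and 152 CPM in control and 26.6 and 61.2 CPM in cKO, and it was at 4.24 and 4.63 CPM in cKO nuclei of cluster 7. Kcnip3 in cluster 0 was at 127 and 132 against 55.9 and 48.8 CPM, and Kcnk2 at 141 and 151 against 87.9 and 94.4 CPM. The 3 genes called lower were thus also lower within cluster 0. With a doublet share of 6% in each library, the fibroblasts split otherwise. A cluster led by Kcnip1 and Scara5 then had 391 and 1085 control and 88 and 270 cKO nuclei. Another, with Nox4, Cilp and Postn among its leading genes, had 49 and 78 control and 523 and 1016 cKO nuclei. Whether cluster 0 holds the same mix of fibroblast states in both groups was not tested.

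**Figure D5:**
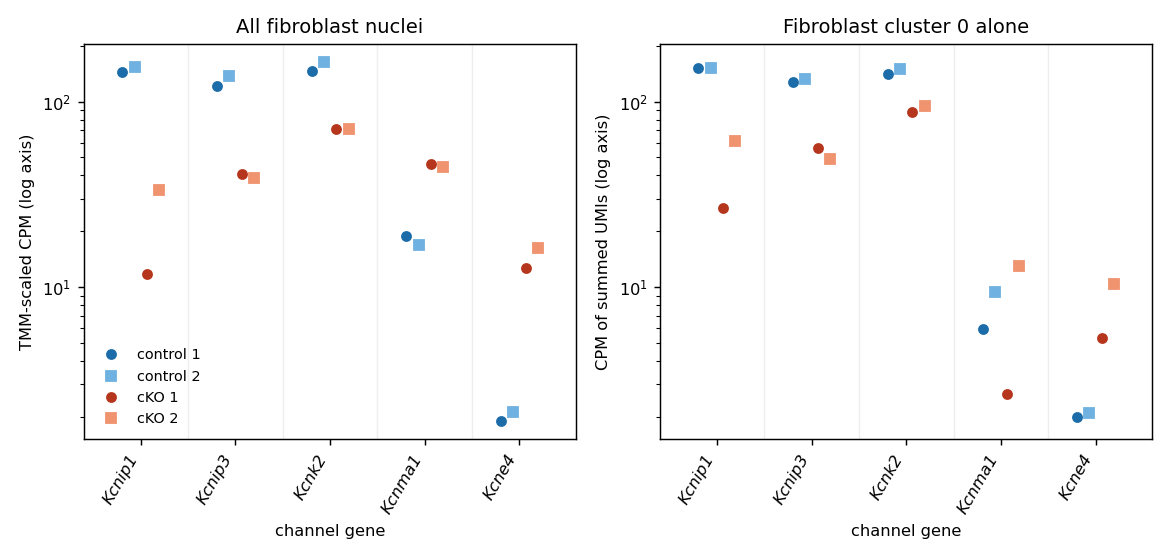
Channel genes called in fibroblasts, 1 point per library on a log axis, in all fibroblast nuclei (left, TMM-scaled CPM) and in cluster 0 alone (right, CPM of the summed UMIs). Kcnip1, Kcnip3 and Kcnk2 lie below the controls in both panels, while Kcnma1 is separated on the left (16.9 and 19.0 against 44.6 and 46.2 CPM) and overlaps on the right.

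Promoter windows in RefSeq's table (build GRCm38.p6) were matched by symbol for 55 of the 80 genes and for 7 of the 9 that passed the test in any class. For 4 of these genes, Kcnj3 from cardiomyocytes and Kcnip3, Kcnk2 and Kcne4 from fibroblasts, the 250 bases before the start site of the annotated gene are shown, since these are the sequences next to the starts of genes whose level changed. Capitals mark matches to 2 motifs searched on both strands, MCAT (CATTCC) and AP-1 (TGANTCA).
Kcnj3, chr2:55435720-55435969, plus strand: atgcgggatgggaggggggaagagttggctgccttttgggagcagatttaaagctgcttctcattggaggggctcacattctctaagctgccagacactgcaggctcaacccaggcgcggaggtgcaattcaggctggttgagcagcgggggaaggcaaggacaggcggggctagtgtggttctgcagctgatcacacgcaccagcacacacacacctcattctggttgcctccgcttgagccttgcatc
Kcnip3, chr2:127522095-127522344, minus strand: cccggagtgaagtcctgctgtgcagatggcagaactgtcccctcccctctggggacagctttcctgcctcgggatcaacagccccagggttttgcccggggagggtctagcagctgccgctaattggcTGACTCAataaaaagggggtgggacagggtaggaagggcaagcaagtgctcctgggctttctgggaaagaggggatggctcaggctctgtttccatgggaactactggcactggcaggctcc
Kcnk2, chr1:189402274-189402523, minus strand: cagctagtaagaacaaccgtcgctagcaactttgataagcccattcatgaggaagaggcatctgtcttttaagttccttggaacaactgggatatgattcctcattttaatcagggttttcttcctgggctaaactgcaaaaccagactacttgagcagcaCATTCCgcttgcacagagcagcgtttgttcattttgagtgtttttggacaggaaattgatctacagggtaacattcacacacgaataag
Kcne4, chr1:78816661-78816910, plus strand: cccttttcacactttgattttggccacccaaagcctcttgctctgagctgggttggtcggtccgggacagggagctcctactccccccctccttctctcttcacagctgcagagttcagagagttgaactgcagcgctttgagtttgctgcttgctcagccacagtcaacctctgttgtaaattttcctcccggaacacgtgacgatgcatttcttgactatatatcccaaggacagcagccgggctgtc
The Kcnip3 window held an AP-1 match that began 122 bases before the start, and the Kcnk2 window an MCAT match that began 89 bases before it. The Kcnj3 and Kcne4 windows held neither motif. Among all 32851 windows of this length 12.6% held MCAT and 6.75% AP-1, and of 76 windows of channel genes 11 and 4 did. Kcnip3 has 3 windows in the table and Kcnk2 has 4, of which the one at the annotated gene start is shown. Another Kcnk2 window, chr1:189344193-189344442, held an AP-1 match that began 126 bases before its start. No measurement here reads the use of these windows or the binding of any factor.

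In macrophages 22 channel genes were tested and Kcnd3 alone was lower, with none higher, where 0.314% of 10821 genes were called lower and 0.527% higher. Kcnd3 was at 78.1 and 74.6 CPM in control and 22.4 and 26.1 CPM in cKO macrophages (log2 fold change -1.64, SE 0.34, edgeR adjusted p = 0.042). The cardiomyocyte markers moved in the same direction: they reached 19.1% and 16.7% of the cardiomyocyte level in control and 10.2% and 10.6% in cKO macrophages, and Kcnd3 reached 17.7% and 15.7% against 8.55% and 7.96%. Their part in the result was not tested. At an unadjusted p under 0.05 edgeR gave 1 higher and 9 lower, against 5.91% and 5.68% of all genes. The call was lost with DESeq2, which called 0 (0.471% of all genes higher and 0.365% lower), with raw library totals, with at least 1000 UMIs per nucleus and without control 2. Kcnn4, an intermediate-conductance calcium-activated channel of immune cells, was at 3.40 and 12.8 against 46.7 and 31.9 CPM (log2 fold change 1.94, SE 0.52, edgeR adjusted p = 0.11). Kcnk13, which had its highest level in this class, was at 211 and 250 against 257 and 376 CPM (log2 fold change 0.45, SE 0.30) and did not pass. The macrophage clusters also differed in their shares. Cluster 11, with Ccr2 and Gpnmb among its leading genes, had 5 and 1 control and 181 and 248 cKO nuclei. Cluster 5, with Cd163 and F13a1 among its leading genes, had 217 and 533 control and 311 and 432 cKO nuclei. The part of these shares in the macrophage values was not tested.

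In endothelial nuclei 0 of 15 channel genes passed with edgeR and 0 with DESeq2, which called 0.279% of all genes higher and 0.406% lower. At an unadjusted p under 0.05 edgeR gave 2 higher and 5 lower, where 4.43% of 10375 genes were higher and 4.95% lower at that level, and 0.0193% and 0.0289% after adjustment. Kcnc2 was at 89.5 and 191 against 92.7 and 126 CPM. In pericytes 0 of 18 passed with either tool, with 1 higher and 1 lower at an unadjusted p under 0.05, where 2.16% and 2.65% of 7649 genes were, and 0.00% after adjustment. Kcnab1 was at 81.8 and 82.7 CPM in control and 156 and 222 CPM in cKO pericytes (log2 fold change 1.23, SE 0.31, edgeR adjusted p = 0.23). Kcnj8 was at 568 and 375 against 446 and 383 CPM, with the cKO libraries between the controls. In simulated data with known changes, 42% of 2-fold changes were recovered in cardiomyocytes, 25% in fibroblasts, 15% in macrophages, 30% in endothelial nuclei and 24% in pericytes, so many changes of that size would be missed with these libraries.

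Of 59 partner genes that bind, anchor or control these channels, 52 were tested in cardiomyocytes with edgeR and 0 passed. Over all genes 1.22% were called higher and 1.49% lower. At an unadjusted p under 0.05, 2 partner genes were higher and 4 lower, where 7.15% of all genes were in each direction. DESeq2 called 1 higher and 1 lower, against 1.77% and 2.22% of all genes it tested. The median log2 fold change of these 52 was -0.03. Atp1b1, the beta subunit of the sodium pump, was at 99.3 and 86.2 CPM in control and 158 and 141 CPM in cKO (log2 fold change 0.69, SE 0.15, edgeR adjusted p = 0.051). Abcc9, the sulfonylurea receptor that joins Kcnj8 and Kcnj11 in ATP-sensitive channels, was at 247 and 245 against 152 and 175 CPM (log2 fold change -0.59, SE 0.14, edgeR adjusted p = 0.080). In fibroblasts 43 were tested, and 1 passed as higher, Rgs4, and 2 as lower, Rgs6 among them. Over all genes 2.34% were called higher there and 1.42% lower. At an unadjusted p under 0.05 edgeR gave 3 partner genes higher and 7 lower, against 7.63% and 6.37% of all genes. Rgs4 and Rgs6, which speed the turn-off of G protein signals, were at 7.58 and 5.82 against 39.9 and 23.3 CPM and at 228 and 265 against 112 and 138 CPM. Their log2 fold changes were 2.25 (edgeR adjusted p = 0.014) and -0.98 (edgeR adjusted p = 0.025). The call was lost for Rgs4 without control 2 and for Rgs6 without control 2, without cKO 1 and with at most 1% mitochondrial UMIs. No partner gene passed with edgeR in endothelial, macrophage or pericyte nuclei, and DESeq2 called 0 in each. At an unadjusted p under 0.05, 1 of 38 was higher and 7 lower in endothelial nuclei, against 4.43% and 4.95% of all genes. In macrophages 3 of 38 were higher and 6 lower, against 5.91% and 5.68%. In pericytes 1 of 36 was higher and 1 lower, against 2.16% and 2.65%.

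The cKO effect in cardiomyocytes was compared with that in each other class by an interaction term, which treats the sums of 1 library as separate samples. With fibroblasts 2 of 45 channel genes differed, Kcnip1 and Kcnq5, where 0.827% of 16324 genes did. None of 46, 41 and 45 channel genes passed with endothelial nuclei, macrophages and pericytes, where 0.0184%, 0.0825% and 0.0392% of all genes did. For Kcnj3 the difference of the log2 fold changes was -0.67 (SE 0.32, edgeR adjusted p = 0.59) against fibroblasts. The fibroblast level of Kcnj3 was read above as background, so this comparison cannot decide whether its change is separate in cardiomyocytes.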

How the data were processed

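Single nuclei were captured with BD Rhapsody after sorting on a nuclear-pore antibody, per the labels' protocols, and the genome build was mm10 according to the submitters' processing notes. Which aligner, annotation and strand setting were used is not stated in these sources. The authors deposited raw UMI counts per gene and barcode, with no normalization. The genes and lists were chosen with earlier results of these data known.

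Barcodes with at least 300 genes, 500 UMIs and at most 5% mitochondrial UMIs were kept. Doublets were scored with Scrublet: automatic calls were used where they reached 0.5% of nuclei (13.5% in cKO 2), and otherwise the top 6% were removed. Counts were log-normalized, 2000 variable genes (channel genes and Abcc9 left out) were scaled, and 30 components and 15 neighbours gave Leiden clusters at resolution 1 (scanpy 1.11.5, leidenalg 0.10.2, Python 3.11.15). A cluster was named from at least 3 listed markers, each in at least 10% of its nuclei, over 2 times the median cluster and at least 20% of the highest cluster. Clusters that carried another class's markers stayed unnamed.

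UMIs were summed per library and class where every library had at least 50 nuclei, which left 5 classes, and tested with edgeR 4.0.16 (filterByExpr, TMM, glmQLFit and glmQLFTest, R 4.3.3) without a replicate block, over all genes, at an adjusted p of 0.05. DESeq2 1.42.0 was an alternative. The script was tested on simulated counts. Each group has 2 libraries, so an exact permutation test cannot fall under p = 0.05. The p-values measure the spread between pools of 2 mice. Named were all channel and partner genes past the threshold, the main cardiac channel genes in cardiomyocytes, and in other classes up to 8 genes highest there. A few of these genes are not reported here, though counts include them. Promoter windows came from RefSeq (GRCm38.p6) and coordinates from GENCODE M21 on the same assembly as mm10.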

Additional observations from a re-analysis of the deposited data

Results flagged for a closer look

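In channel genes, 2 results differed between cell classes by a test of the difference itself. For Kcnip1 the log2 fold change in cardiomyocytes minus that in fibroblasts was 2.98 (SE 0.63, edgeR interaction test, adjusted p = 0.045). Its log2 fold change was 0.44 in cardiomyocytes, where its level was 1.40 and 1.57 CPM in control and 1.48 and 2.50 CPM in cKO, and -2.57 in fibroblasts. For Kcnq5, a Kv pore subunit, the difference was 2.19 (SE 0.46, edgeR interaction test, adjusted p = 0.042). It was at 31.2 and 28.8 CPM in control and 34.5 and 42.5 CPM in cKO cardiomyocytes (log2 fold change 0.37), and at 11.4 and 23.8 against 7.25 and 4.78 CPM in fibroblasts (log2 fold change -1.79, edgeR adjusted p = 0.068), so it passed in neither class alone.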

How the results depend on the processing

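Counts of channel genes past the threshold, higher and lower in cKO, moved as follows. In cardiomyocytes (1 and 2 with edgeR) they were 2 and 3 with DESeq2, 2 and 2 with raw library totals, 2 and 4 with no filter on low counts, and 1 and 1 to 4 when a library was left out. The count of 3 lower also came with at most 1% mitochondrial UMIs, with no doublet removal, with a doublet share of 6% in each library (an alternative chosen after seeing the data) and without nuclei carrying atrial UMIs. In fibroblasts (2 and 3) they were 0 and 3 with DESeq2, 0 and 2 with at most 1% mitochondrial UMIs, 2 and 6 with no doublet removal, and 0 to 3 and 2 to 5 when a library was left out. In macrophages (0 and 1) the lower count was 0 with DESeq2, raw library totals, at least 1000 UMIs or at most 1% mitochondrial UMIs, 2 with a doublet share of 6% in each library, 3 with no filter and 6 with no doublet removal, and 0 to 6 when a library was left out. The higher count there was 1 with no filter and with no doublet removal, and 0 to 1 when a library was left out. In endothelial nuclei the lower count was 0 to 2 when a library was left out, being 2 without control 2. Where a library was left out, the lone library of its group is assumed to vary like the other group. At most 1% mitochondrial UMIs left under 50 nuclei in at least 1 library of every class tested but cardiomyocytes, down to 3 endothelial nuclei in control 1. Shares of all genes called are given only for the main fit, DESeq2 and the replicate block. The counts under the other settings therefore cannot be read as particular to channel genes. The cause of the changes in counts was not tested.

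Libraries share only a replicate number, with 2 pairs, and deviations of same-numbered libraries correlated at r = 0.51 in cardiomyocytes, 0.31 in endothelial nuclei, 0.35 in fibroblasts, 0.21 in macrophages and 0.19 in pericytes, over genes. With the replicate block the counts higher and lower were 5 and 14 in cardiomyocytes, 1 and 5 in endothelial nuclei, 2 and 11 in fibroblasts, 1 and 8 in macrophages and 1 and 0 in pericytes. The shares of all genes called with it, higher and lower, were 12.6% and 12.8%, 3.83% and 4.38%, 9.0% and 9.11%, 3.25% and 3.38%, and 0.588% and 0.876% in the same order.

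Kcnv2 in cardiomyocytes and Kcnip1 and Kcnip3 in fibroblasts stayed past the threshold in every setting run, with log2 fold changes of -2.19 to -1.59, -3.66 to -2.16 and -2.53 to -1.61. Estimates that did not pass changed sign for Kcnj11 in cardiomyocytes (-0.023 with at most 1% mitochondrial UMIs) and, when a library was left out, for Kcnn3 there (-0.60 without cKO 2 to 0.65), Kcnc2 in endothelial nuclei (-0.79 to 0.34 without control 2), Kcnh1 in pericytes (-0.047 without cKO 2 to 1.12), Kcnj8 in pericytes (-0.46 to 0.12 without control 1) and Kcnt2 in fibroblasts (-0.16 without cKO 2 to 0.37, and -0.056 without control 1).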
